A study of Mus musculus with 58 samples.

Results

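A set of 10 genes of the neuronal cytoskeleton and its best known injury markers was followed in bulk RNA sequencing of mouse somatosensory cortex: Nefl, Nefm, Nefh, Ina, Mapt, Map1a, Map1b, Map2, Uchl1 and Gap43. They were chosen by name, and 10 of 10 are among the 9636 genes of the count table. The mice were C57BL/6J of both sexes. At an age of 2 to 4 months each was given either closed head injury once a day on 5 days (5xCHI) or as many sham procedures, with SB239063 (SB, an inhibitor of the stress kinase p38 MAPK, 20 mg/kg by intraperitoneal injection) or saline vehicle 30 min after each one. All 58 cortices were taken about 1 month after the last procedure, and the design text names days 18 and 34 without tying animals to them. The females comprised 9 sham vehicle, 3 sham SB, 12 5xCHI vehicle and 11 5xCHI SB mice, and the males 5 sham vehicle, 2 sham SB, 8 5xCHI vehicle and 8 5xCHI SB mice. They belonged to 4 cohorts of each sex (F1 to F4 and M1 to M4), and sham SB mice were present only in F1, F2, M1 and M2. Because no cohort holds both sexes, sex and cohort cannot be told apart. Nothing in the labels ties libraries to a shared animal. If any did share one, the p-values would describe a spread that is partly technical.

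Axons are held open by neurofilaments, which assemble from a light (Nefl), a medium (Nefm) and a heavy (Nefh) chain together with alpha-internexin (Ina) in central neurons. Microtubules run beside them and are bound by tau (Mapt), concentrated in axons, by Map2, concentrated in dendrites, and by the large proteins Map1a and Map1b. Uchl1 is an abundant neuronal deubiquitinating enzyme, and Gap43 is a membrane protein of growth cones and sprouting axons. Neurofilament light chain, tau and Uchl1 protein are known as markers that leak into cerebrospinal fluid and blood after axonal injury. The libraries measure their mRNA in the tissue, not the released protein.

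The promoter windows of 4 genes are shown because their genes form the clearest opposed groups in the results: Map1a, Map1b and Map2 varied together across libraries, and Uchl1 varied against Map2. Each is the 250 bases before the RefSeq transcription start (GRCm38.p6), written 5′ to 3′ along the gene. Capitals mark GC boxes (GGGCGG on either strand) and the TATA motif (TATAAA on either strand), with overlapping matches counted separately. A cyclic AMP response element (TGACGTCA) was searched as well.
Map1a (chr2:121289352-121289601, plus strand): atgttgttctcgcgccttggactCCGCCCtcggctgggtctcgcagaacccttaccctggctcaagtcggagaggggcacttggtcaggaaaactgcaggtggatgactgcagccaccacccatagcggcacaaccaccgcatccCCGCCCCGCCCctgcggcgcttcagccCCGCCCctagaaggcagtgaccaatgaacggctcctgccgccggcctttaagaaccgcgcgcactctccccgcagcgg
Map1b (chr13:99516603-99516852, minus strand): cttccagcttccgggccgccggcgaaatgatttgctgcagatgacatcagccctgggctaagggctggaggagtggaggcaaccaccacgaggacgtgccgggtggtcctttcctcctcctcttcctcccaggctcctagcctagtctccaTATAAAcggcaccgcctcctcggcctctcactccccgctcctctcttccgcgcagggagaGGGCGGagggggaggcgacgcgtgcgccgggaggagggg
Map2 (chr1:66175079-66175328, plus strand): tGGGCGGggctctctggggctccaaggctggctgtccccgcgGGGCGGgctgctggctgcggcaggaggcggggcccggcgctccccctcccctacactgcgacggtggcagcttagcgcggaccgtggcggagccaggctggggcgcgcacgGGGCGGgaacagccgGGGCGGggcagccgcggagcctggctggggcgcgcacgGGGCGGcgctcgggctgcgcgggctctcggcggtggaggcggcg
Uchl1 (chr5:66675871-66676120, plus strand): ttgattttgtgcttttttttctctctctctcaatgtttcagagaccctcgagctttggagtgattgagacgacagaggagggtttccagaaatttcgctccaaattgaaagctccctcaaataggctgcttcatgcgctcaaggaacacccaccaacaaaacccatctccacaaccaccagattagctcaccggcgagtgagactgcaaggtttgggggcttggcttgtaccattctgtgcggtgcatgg

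The Map2 window held 5 GC boxes, the Map1a window 4 and the Map1b window 1, and Map1b alone of the 4 held TATAAA. A short sequence match between the region of the RefSeq start and GENCODE M21 transcripts was not found for Map1b, and was found for the other windows. Such a match does not show that both annotations start at the same base. The Uchl1 window matched none of the 3 motifs. Among 32851 mouse windows of the same length, 32.7% held a GC box, 12.4% TATAAA and 1.55% the response element. The windows of Map2 (81.2% G+C), Map1b (66.4%) and Map1a (66%) were richer in G+C than the median window (52.4%), and that of Uchl1 was not (48.8%). The window of Ina, a gene that also varied against Map2, held 2 GC boxes at 70.8% G+C. A match describes letters and does not show that a factor binds there. RefSeq windows matched 5 of the 10 genes (Ina is the fifth).

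The tissue carried the markers of its label. All 18 of 18 pan-neuronal and 18 of 18 cortical layer markers were measured, and the summed neuronal level varied little, from 20025 to 24331 CPM (a gene's counts relative to the library's total, scaled between libraries by TMM). Of 9 choroid plexus and ependymal markers 0 were in the table. It lists only genes of high count, so this does not show that they were absent from the tissue. The 6 measured of 10 striatal markers summed to 294 to 1665 CPM (median 397). The libraries held 28316280 to 49158277 counts in the listed genes. In each library, the deviation of genes from their mean followed transcript length, taken as exon length, to a different degree (Spearman rho from -0.67 to 0.50 over 9549 genes). That tendency returns below because these genes include some of the longest by exon length. In all, 6 libraries stood apart on the first 4 principal components: female 5xCHI SB 8 and 10, female 5xCHI vehicle 1, female sham vehicle 1 and 7, and male sham vehicle 2. Female sham vehicle 1 had the highest myelin marker sum (23746 CPM, against 14697 in the next library) and the lowest neuronal sum.

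By level, all 10 genes were abundant. Per kilobase of exon (CPM divided by the exon length of the gene), Uchl1 was highest with 291 ± 38.2 (SD, n = 58), followed by Nefl with 193 ± 19.6 and Map1a with 167 ± 40.9. Map2 (136 ± 23.7), Mapt (123 ± 8.39) and Gap43 (119 ± 17.5) came next, then Map1b (97.4 ± 10.1), Ina (89.9 ± 9.01), Nefm (79.6 ± 14.5) and Nefh (35.5 ± 7). Uchl1 exceeded Nefl, and Nefm exceeded Nefh, in 58 of 58 libraries. The order was loose elsewhere: Mapt lay above Gap43 in 33 of 58 libraries, Map1b above Ina in 38 and Map2 above Mapt in 40. The neurofilament chains kept a steep gradient, with 2.47 ± 0.326 Nefl per Nefm and 5.58 ± 0.91 Nefl per Nefh on the per kilobase scale. That scale joins all annotated exons of a gene, so an expressed mRNA can be shorter than the length used.

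The genes differed widely in how steady they were. Mapt had a residual SD of 0.074 (log2, after group and cohort), and only 0.809% of all genes had a smaller one. Nefl (0.11), Map1b (0.12) and Ina (0.13) were also steadier than the median gene (0.16), and Gap43 (0.16) was at it. Uchl1 (0.19), Nefh (0.23), Map2 (0.23), Nefm (0.24) and Map1a (0.24) were more variable, the last 4 each more so than at least 85.6% of all genes. In CPM, Mapt stayed between 705 and 1002 over 58 libraries, whereas Map1a ran from 962 to 2687.

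**Figure D1:**
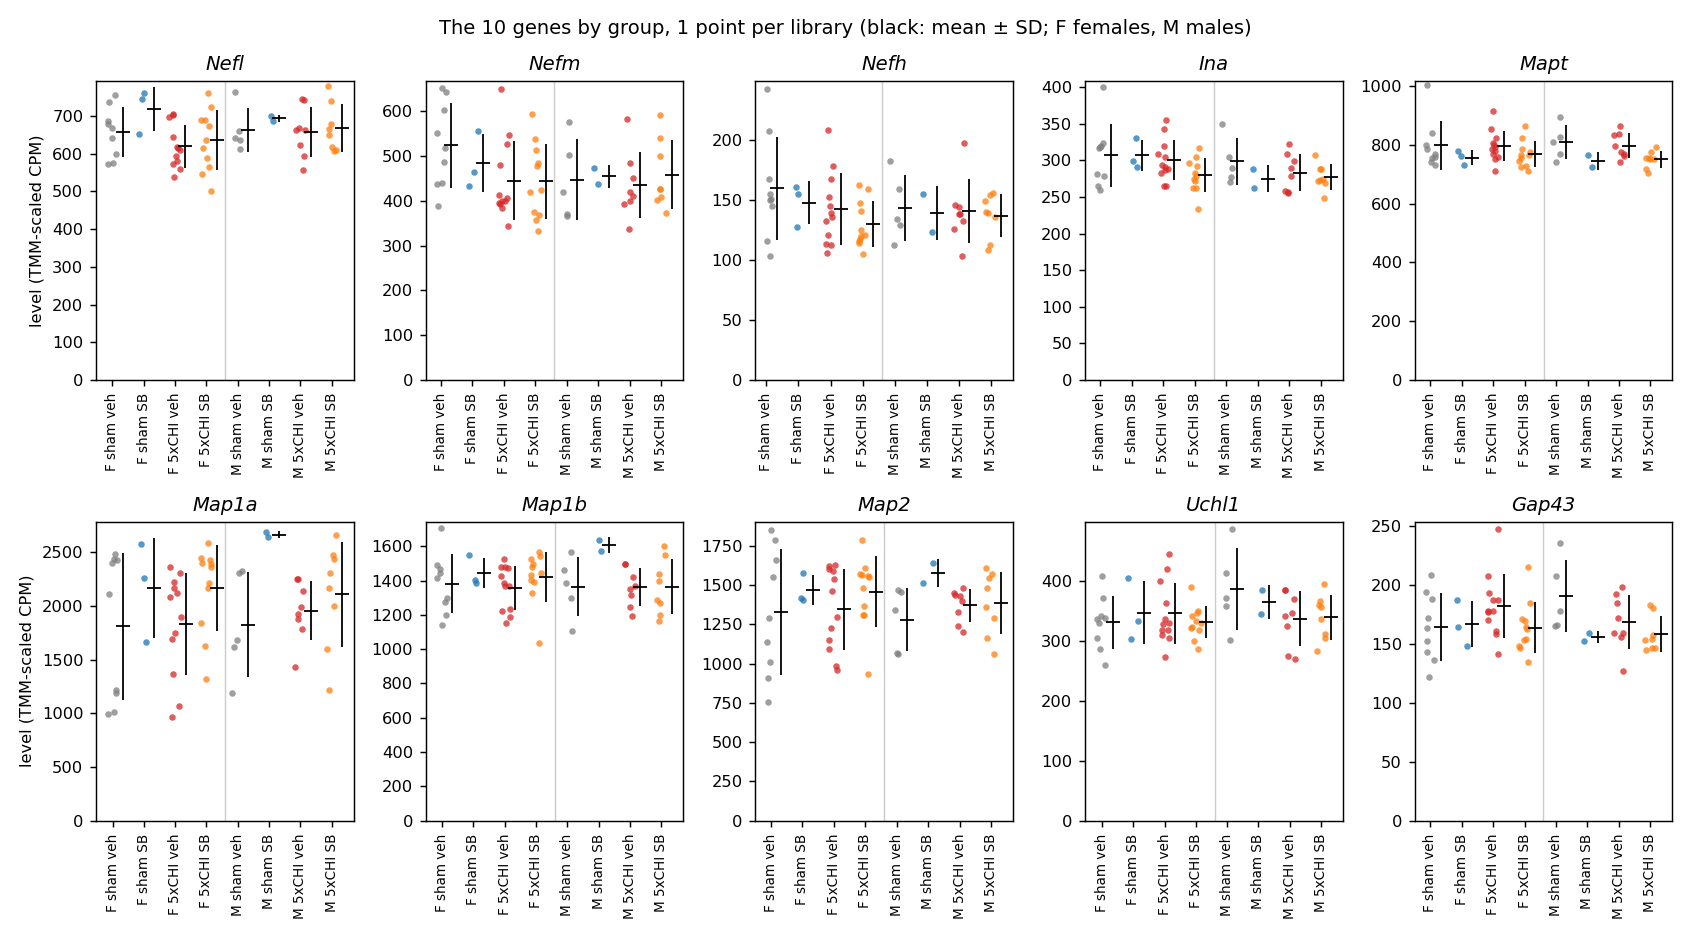
Levels of the 10 genes (TMM-scaled CPM, linear axis from 0) in the 8 groups, with 1 point per library and the mean ± SD in black beside it. Groups overlap for most genes; the 2 male sham SB libraries of Map1a (2639 and 2687 CPM) sit above all 5 male sham vehicle libraries, of which 3 come from cohorts without sham SB.

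Repeated head injury was compared with sham in vehicle mice of both sexes, by averaging the differences found in females and in males within cohorts. None of the 10 genes passed the adjusted threshold, and the estimates were small. No gene of the whole table had an adjusted p under 0.05 by edgeR (0 of 9636, 0%) or by DESeq2, and 1.75% of all genes but none of the 10 had an unadjusted p under 0.05. Of the 10 estimates, 8 were below zero, as were 4872 of all 9636 genes. The median of the 10 was -0.033 (log2) against -0.00067 over all genes.

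Among the neurofilament genes, Nefm, the medium chain, had the largest estimate. Its level ran from 367 to 652 CPM (median 495) in the 14 sham vehicle libraries and from 338 to 650 (median 409) in the 20 5xCHI vehicle libraries. The ranges overlapped almost fully, and the injured median was the lower. The log2 difference was -0.14 ± 0.085 (SE; 95% interval -0.31 to 0.028; edgeR p = 0.0988, adjusted p = 1). Nefl, the light chain, had a median of 651 CPM (573 to 764) in sham and 621 CPM (537 to 746) after injury, a log2 difference of -0.057 ± 0.04. The 95% interval of Nefl ran from -0.14 to 0.022. Nefh gave -0.075 ± 0.08 and Ina -0.051 ± 0.047.

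The microtubule-binding genes showed no common direction. Mapt had a median of 779 CPM (732 to 1002) in sham and 789 CPM (711 to 915) in injured vehicle mice. Its log2 difference was -0.014 ± 0.031, and the interval of -0.076 to 0.048 is the narrowest of the 10. Map1a (0.064 ± 0.081) and Map2 (0.067 ± 0.078) were the only estimates above zero, and Map1b gave -0.0098 ± 0.043. Uchl1, with 340 CPM (260 to 487) in sham and 333 CPM (270 to 444) after injury, gave -0.071 ± 0.066. Gap43 gave -0.0066 ± 0.059. Without the 6 libraries that stood apart, 6 of these 10 signs turned: Gap43 became 0.053, Uchl1 0.029, Ina 0.01, Mapt 0.0028, Map1a -0.033 and Map2 -0.046.

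Each sex was then read alone. In vehicle females, 3 of the 10 genes had an unadjusted p under 0.05, against 3.14% of all genes, and no gene passed adjustment by either tool (0 of 9636, 0%). Nefm ran from 389 to 652 CPM (median 518) in 9 sham females and from 345 to 650 (median 403) in 12 injured females. Most injured females lay below the sham median, but the ranges overlapped, with injured libraries at 528, 547 and 650 CPM. The log2 difference was -0.26 ± 0.1 (95% interval -0.46 to -0.049; edgeR p = 0.0163, adjusted p = 1), and it was below zero in 4 of 4 female cohorts (-0.34 in F1, -0.46 in F2, -0.25 in F3 and -0.052 in F4). The F2 value rests on 1 sham library, female sham vehicle 1, which stood apart, and without that library the estimate over all females was -0.24. Nefl followed with -0.1 ± 0.048 (p = 0.0401) and was also below zero in 4 of 4 female cohorts, from -0.14 to -0.078. Nefh gave -0.17 ± 0.097 (p = 0.0806).

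In males Nefm gave -0.029 ± 0.13, and the sex difference of the injury effect, 0.23 ± 0.17, was not past the test (p = 0.19). Leaving out any single library kept the female Nefm estimate between -0.29 and -0.21, and without the 6 libraries that stood apart it was -0.2.

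Gap43 and Uchl1 pointed in opposite directions in the sexes. Gap43 ran from 122 to 208 CPM (median 163) in sham females and from 141 to 247 (median 178) in injured females. In males it was 178, 235, 166, 207 and 165 CPM in the 5 sham vehicle libraries and 127 to 198 (median 165) in the 8 injured ones. Groups overlapped in both sexes. The log2 difference was 0.16 ± 0.072 in females (edgeR p = 0.033, adjusted p = 1) and -0.17 ± 0.093 in males (p = 0.0721, adjusted p = 0.846). It was above zero in 4 of 4 female and below zero in 4 of 4 male cohorts, although the differences in F4 (0.014) and M2 (-0.0048) were close to none. In F2, M1, M2 and M4 the sham side of these differences is 1 library. Without male sham vehicle 2, one of the libraries that stood apart, the male estimate of Gap43 was -0.09.

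The difference between the sexes, tested directly, was -0.33 ± 0.12 (males minus females; edgeR p = 0.0073, adjusted p = 0.786). Of all genes, 6.13% had an unadjusted p under 0.05 for that difference, as did 2 of the 10, Gap43 and Uchl1, and none passed adjustment by edgeR or DESeq2 (0 of 9636, 0%). Uchl1 gave -0.21 ± 0.1 in males (edgeR p = 0.0494, adjusted p = 0.846), where it alone of the 10 had an unadjusted p under 0.05, against 3.55% of all genes (0% past adjustment), and 0.069 ± 0.08 in females. The 5 sham males had 301, 487, 358, 413 and 372 CPM of Uchl1. The library at 487 is male sham vehicle 2, which stood apart, and without it the male estimate was -0.11. In males the injury estimates of all genes followed transcript length (rho = 0.49, against 0.03 in females). Genes about as short as Uchl1 had a median of -0.087, with 10.2% of them lower than Uchl1, and those about as short as Gap43 had -0.075, with 15.9% lower. The part of length in the male estimates of both genes was not tested.

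**Figure D2:**
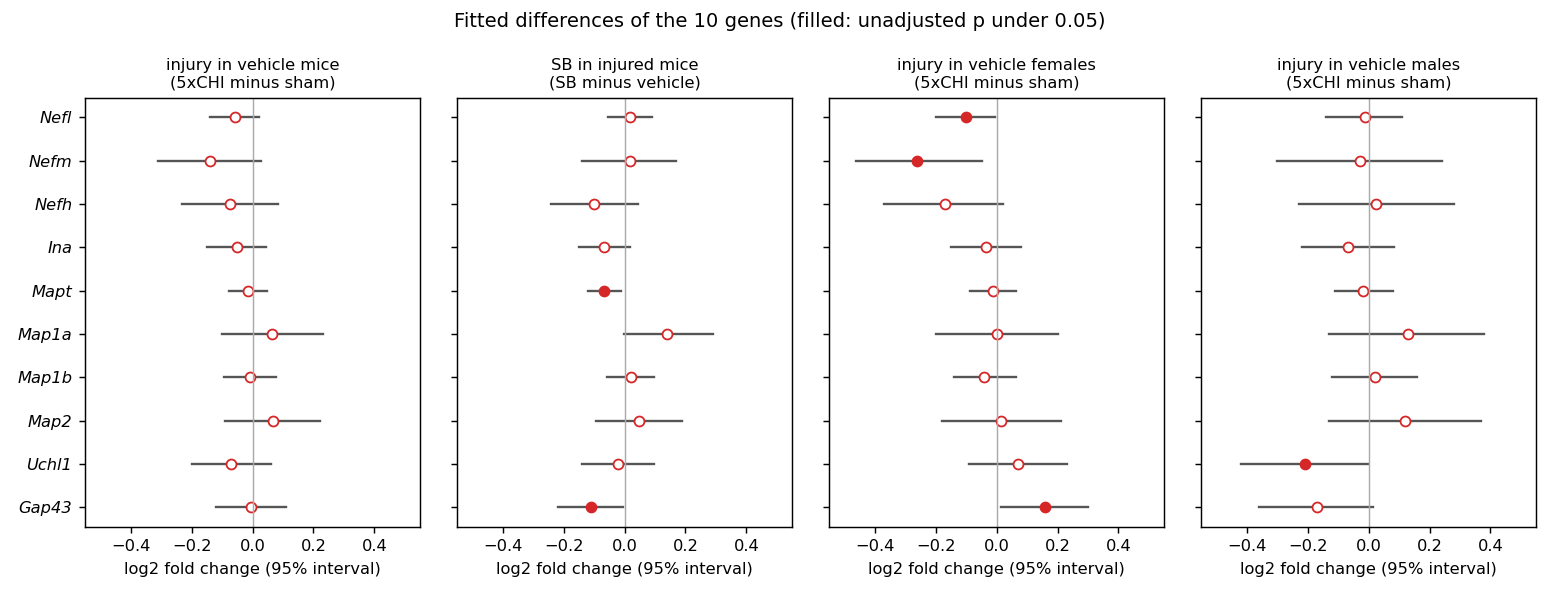
Fitted log2 fold changes of the 10 genes (points) with 95% intervals (lines) for 4 comparisons (injury in vehicle mice, then SB against vehicle after injury, then injury in vehicle females and in vehicle males). Filled points have an unadjusted p under 0.05 and none an adjusted p under 0.05; Nefm and Nefl lie below zero in females, and Gap43 lies on opposite sides of zero in the sexes.

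SB was compared with vehicle in injured mice to ask whether p38 inhibition alters these genes after injury. This comparison and the previous one share the 5xCHI vehicle libraries. No gene passed adjustment by edgeR or DESeq2 (0 of 9636, 0%), and 2 of the 10 (Mapt and Gap43) had an unadjusted p under 0.05, against 7.06% of all genes. Of the 10 estimates, 5 lay above and 5 below zero, with a median of -0.0012 against 0.0034 over all genes.

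Mapt, encoding tau, ran from 711 to 915 CPM (median 789) in 20 injured vehicle libraries and from 705 to 863 (median 756) in 19 injured SB libraries. The ranges overlapped, and the SB median was the lower. The log2 difference was -0.068 ± 0.028 (95% interval -0.12 to -0.012; edgeR p = 0.0177, adjusted p = 0.663). It was below zero in 8 of 8 cohorts (F4 holds 1 injured SB library), from -0.15 in M3 to -0.0084 in F1, and stayed between -0.08 and -0.061 when any library was left out. Females gave -0.05 ± 0.036 (p = 0.164) and males -0.086 ± 0.043 (p = 0.0489), and the sex difference was -0.035 ± 0.055 (p = 0.525).

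In the same comparison 4604 of all 9636 genes were below zero and 7.06% had an unadjusted p under 0.05. Of 19 oligodendrocyte and myelin markers 18 had estimates below zero, all 18 at that p and 0 with an adjusted p under 0.05 (median -0.33). Their summed level ran from 6451 to 14697 CPM in injured vehicle and from 3294 to 12564 CPM in injured SB libraries. Mapt, which oligodendrocytes also express, correlated with that sum by r = 0.25 over 58 libraries after group and cohort (rho = 0.2, adjusted permutation p = 0.15 for r and 0.27 for rho over 110 relations; 0.27 without the 2 farthest). By sex, r was 0.40 in females and -0.02 in males. The part of these markers in the Mapt result was not tested. Fewer cells of a type and less RNA per cell cannot be told apart in bulk tissue.

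Gap43 ran from 127 to 247 CPM (median 177) in injured vehicle and from 134 to 215 (median 154) in injured SB libraries, overlapping throughout. Its log2 difference was -0.11 ± 0.053 (edgeR p = 0.0414, adjusted p = 0.697), and it was below zero in 6 of 8 cohorts. Map1a pointed upwards, with 962 to 2366 CPM (median 1956) in vehicle and 1218 to 2657 (median 2310) in SB libraries, a log2 difference of 0.14 ± 0.073 (p = 0.0538, adjusted p = 0.712) that was above zero in 7 of 8 cohorts. The exception was M4, with -0.2. The SB estimates of all genes followed transcript length (rho = 0.37, and 0.49 in females alone). Genes about as long as Map1a had a median of 0.045, with 95.2% of them lower than Map1a. Those about as short as Gap43 had -0.031, with 5.88% lower. The part of length in the Map1a and Gap43 estimates was not tested. The neurofilament genes gave 0.019 ± 0.036 (Nefl), 0.018 ± 0.076 (Nefm) and -0.099 ± 0.072 (Nefh), and Ina gave -0.068 ± 0.042. Map1b (0.021 ± 0.038), Map2 (0.046 ± 0.07) and Uchl1 (-0.02 ± 0.059) were near zero, and the Uchl1 interval reached from -0.14 to 0.098.

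By sex, 1 of the 10 genes had an unadjusted p under 0.05 in each. It was Map1a in females (0.2 ± 0.093, edgeR p = 0.0375, adjusted p = 0.693; 7.21% of all genes) and Mapt in males (1.88% of all genes). None of the 9636 genes passed adjustment by either tool in females (0%), in males (0%) or for the sex difference of the SB effect (0%), where 0.913% of all genes and none of the 10 had an unadjusted p under 0.05.

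Sham mice given SB numbered 5 in all. Map1a again had the largest estimate. The 3 female sham SB libraries had 1661, 2256 and 2578 CPM, within the female sham vehicle range of 996 to 2487 (median 2114) except for the highest. The 2 male libraries had 2639 and 2687 CPM, above the 1621, 1685, 2308, 1187 and 2327 CPM of the 5 male sham vehicle libraries. Only M1 and M2 hold both groups of males, with 1 library each: 2687 against 1187 CPM in M1 and 2639 against 2308 CPM in M2. M4, the lowest male cohort for Map1a, holds no sham SB library. The log2 difference over both sexes was 0.32 ± 0.12 (95% interval 0.065 to 0.57; edgeR p = 0.0147, adjusted p = 0.677). It was the only one of the 10 with an unadjusted p under 0.05, against 7.02% of all genes (0% past adjustment by edgeR or DESeq2). Map2 (0.2 ± 0.12) and Map1b (0.11 ± 0.066) were also above zero. In males, Map2 was at 1514 against 1060 CPM in M1 and at 1641 against 1472 CPM in M2, and Map1b at 1638 against 1108 CPM and at 1572 against 1462 CPM. Without the libraries that stood apart the Map1a difference was 0.21, and leaving out single libraries moved it between 0.22 and 0.4.

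In this comparison the log2 differences of all genes followed transcript length (rho = 0.55), and the median over 397 genes as long as Map1a was 0.12. Of those genes 99.5% had a lower estimate than Map1a. With an offset that removes the length trend of each library, the Map1a difference was 0.2 (adjusted p = 0.928).

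Injured mice given SB were also set against sham vehicle mice, a comparison that shares libraries with both of the above. Of the 10 genes, 4 had an unadjusted p under 0.05, against 12.6% of all genes, and none passed adjustment by either tool (0%; smallest adjusted p of the 10 = 0.351 by edgeR). Map1a was higher by 0.21 ± 0.082 (p = 0.0148), and Mapt (-0.082 ± 0.031, p = 0.0108), Ina (-0.12 ± 0.048, p = 0.0157) and Nefh (-0.17 ± 0.08, p = 0.0355) were lower. The Map1a difference is 0.085 without the libraries that stood apart. The differences of all genes followed transcript length here (rho = 0.60), and genes as long as Map1a had a median of 0.089. For the injury by SB interaction, 1.38% of all genes and none of the 10 had an unadjusted p under 0.05 (0% past adjustment by either tool), with estimates from -0.17 (Map1a) to 0.11 (Nefm).

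Cohort, unlike injury or SB, gave genes past adjustment. In females, 8 of the 10 genes had an adjusted p under 0.05 for cohort by edgeR, against 50.0% of all genes. The other two were Ina (adjusted p = 0.0539) and Uchl1 (0.615). In males 1 gene did, Map1a (adjusted p = 0.0312), against 3.83% of all genes. Between male cohorts the widest gap of means (log2) was 0.098 for Gap43 and 0.23 for Uchl1, the latter like those of Map1b (0.24) and Map2 (0.26). The male injury estimates of Gap43 and Uchl1 were -0.17 and -0.21. The male call was lost when any of 7 single libraries was left out, and Nefm in females (adjusted p = 0.0477) was lost in 30 of 58 such fits.

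Map1a showed the widest cohort difference. Its 5 libraries of F4 had 1315, 962, 1072, 996 and 1220 CPM, whatever their injury or treatment, while the 10 libraries of F1 ran from 2163 to 2578 CPM (median 2279). The 2 cohorts did not overlap, and their means, 2323 and 1113 CPM, were 2.1-fold apart (edgeR F test over the 4 cohorts, adjusted p = 2.77e-08). In males M2 (2252 to 2657 CPM) and M4 (1598, 1218, 1789, 1432 and 1621 CPM) did not overlap either, at 1.59-fold. Map2 was 1.51-fold and Map1b 1.28-fold higher in F1 than in F4, each without overlap (adjusted p = 0.000358 and 0.000323).

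Nefl also had its highest mean in F1 (721 CPM) and its lowest in F4 (566 CPM). Its 5 F4 libraries had 547, 537, 573, 599 and 573 CPM, below the lowest of F1 at 644 (adjusted p = 2.23e-05). Nefh was 1.45-fold higher in F2 than in F4, with overlap. Gap43 ran the other way: it was highest in F4, with 215, 193, 207, 208 and 188 CPM, and lowest in F3, with 122 to 184 CPM, 1.31-fold apart (adjusted p = 0.000209). F4 was also the cohort with the lowest length tendency (median rho -0.36, against 0.36 in F3). With the length offset, 7 of the 8 female calls and the male call of Map1a stayed, and Nefm lost its call (adjusted p = 0.0969).

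**Figure D3:**
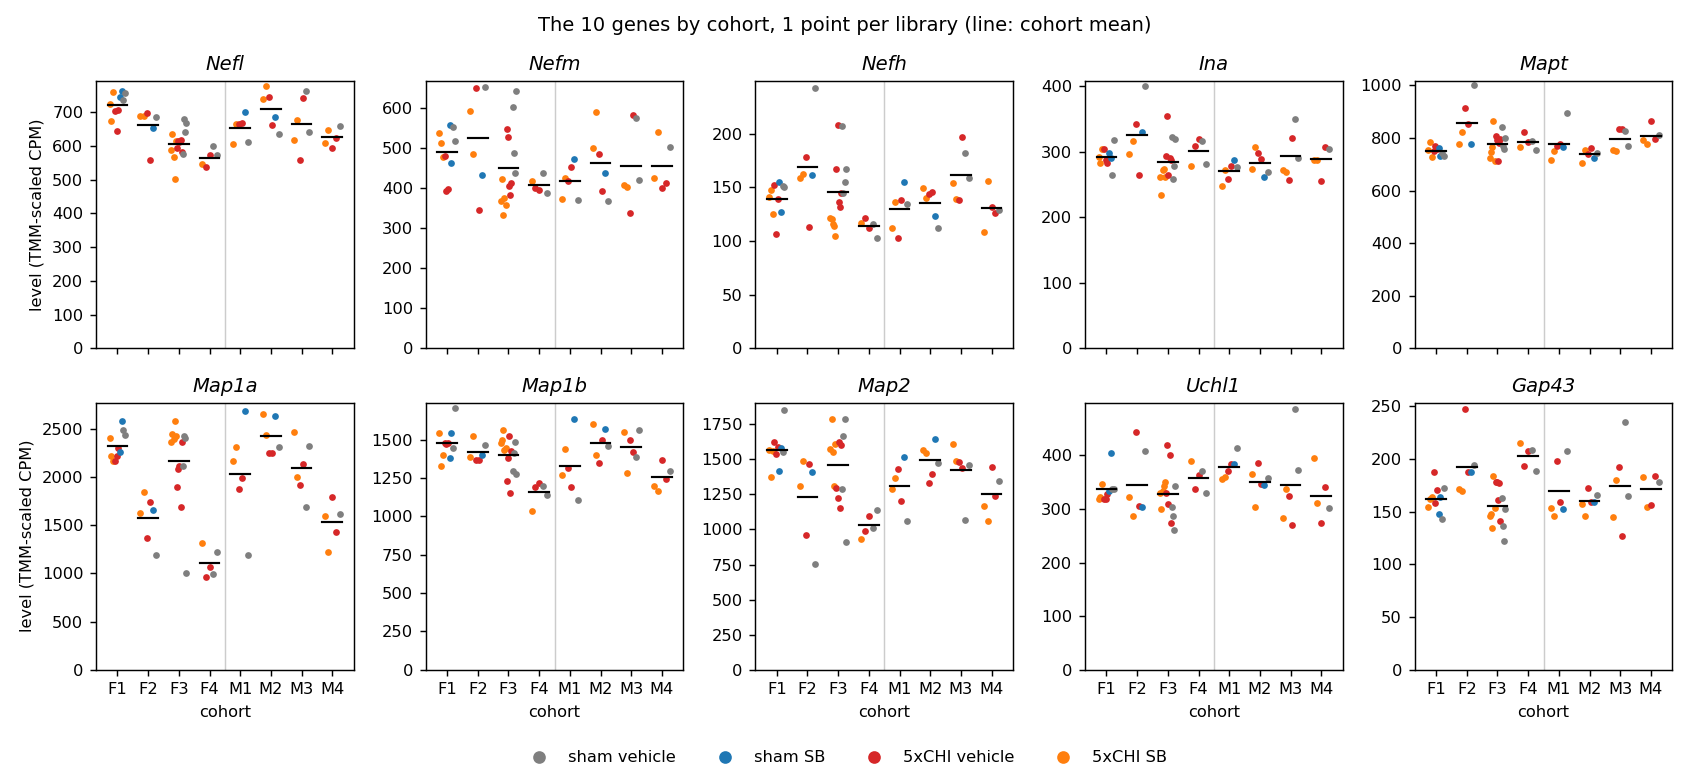
Levels of the 10 genes (TMM-scaled CPM, linear axis from 0) by cohort, 1 point per library coloured by group, with a line at the cohort mean. Map1a falls from a mean of 2323 CPM in F1 to 1113 CPM in F4, in injured and sham libraries alike, while Gap43 is highest in F4.

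Across the 58 libraries, after group and cohort were removed, the 10 genes are described in 3 sets and Mapt, grouped after the correlations were seen. In all 45 pairs were correlated (Pearson's r and Spearman's rho, permutation p with Benjamini-Hochberg adjustment over the pairs), and 25 had an adjusted p under 0.05 for r. The smallest p that 100000 permutations can give is 1e-05, and after adjustment 4.1e-05 for r and 4.5e-05 for rho. The neurofilament genes varied together. Nefm with Nefh reached r = 0.77 (rho = 0.76), Nefh with Ina 0.71 (0.65), Nefl with Nefm 0.65 (0.63) and Nefm with Ina 0.65 (0.64), all with the smallest adjusted p. Without the 2 farthest libraries they were 0.73, 0.61, 0.64 and 0.59. Nefl was tied less closely to Nefh (r = 0.40, rho = 0.31, adjusted p = 0.0055 and 0.031). The Nefl and Nefm pair was tighter in males (r = 0.94) than in females (0.43); that difference was not tested.

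Map1a, Map1b and Map2, whose promoters are printed above, formed the second set. Map1a with Map2 gave r = 0.74 (rho = 0.71; 0.71 without the 2 farthest), Map1b with Map2 0.57 (0.62; 0.54) and Map1a with Map1b 0.56 (0.53; 0.52), with adjusted p = 4.1e-05 for r. Uchl1 and Gap43, the genes with the shortest exon lengths of the 10, formed the third (r = 0.70, rho = 0.66, 0.64 without the 2 farthest, adjusted p = 4.1e-05).

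Between the Map set and the others the sign turned most clearly for Map2. Map2 ran against Uchl1 (r = -0.67, rho = -0.64), Ina (-0.59, -0.53), Mapt (-0.58, -0.63) and Nefm (-0.50, -0.45), with adjusted p from 4.1e-05 to 0.00037 for r. Without the 2 farthest libraries these were -0.67, -0.55, -0.50 and -0.48. Map1a was weaker, at -0.36 with Uchl1 and -0.37 with Ina (adjusted p = 0.011 and 0.01 for r). Map1b was negative past the test only with Gap43 (-0.33, 0.022), not with Uchl1 (-0.25, 0.083) or Ina (-0.11, 0.43). Nefl passed with none of the Map set (-0.16 with Map1a, -0.03 with Map1b and -0.10 with Map2). No pair between the neurofilament genes and Uchl1 or Gap43 was negative past the test. Ina with Uchl1 gave r = 0.43 (rho = 0.35, adjusted p = 0.0019 for r; 0.34 without the 2 farthest), above the 0.40 of Nefl with Nefh. Nefm with Uchl1 (0.23, rho = 0.18, adjusted p = 0.11) and Ina with Gap43 (0.25, rho = 0.25, adjusted p = 0.083) did not pass. Mapt was split among the neurofilament genes. It gave r = 0.38 with Ina (rho = 0.42, adjusted p = 0.0079; 0.40 without the 2 farthest) and 0.37 with Nefh (0.46, 0.0099; 0.39). With Nefm it gave 0.26 (rho = 0.36, adjusted p = 0.075) and with Nefl -0.23 (rho = -0.13, adjusted p = 0.11), neither past the test for r.

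**Figure D4:**
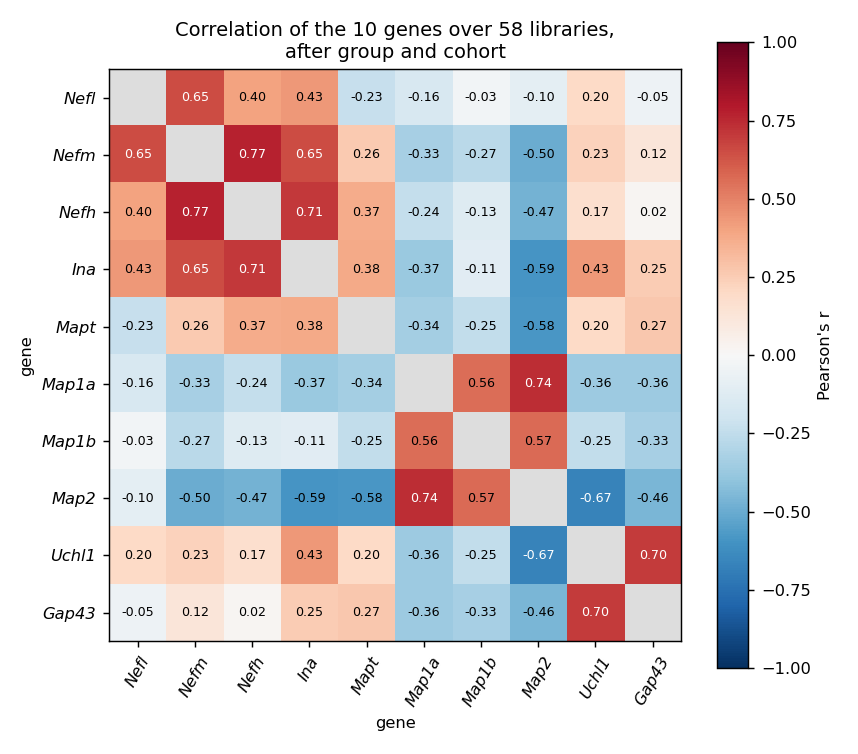
Pearson's r of each pair of the 10 genes over 58 libraries after group and cohort (colour from -1 to 1, value printed; the diagonal is grey). Nefl, Nefm, Nefh and Ina form a positive block, as do Map1a, Map1b and Map2, and Map2 is negative to Uchl1 at -0.67.

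The sets were set beside the exon length of the genes. The exon lengths of the genes are 14.3 kb for Map1b, 11.9 kb for Map1a and 10.2 kb for Map2, each longer than at least 96.1% of genes, and 1.42 kb for Gap43 and 1.18 kb for Uchl1, against a median of 3.69 kb. After group and cohort, Map2 correlated with the length tendency of the library by r = 0.86 (rho = 0.87; 0.84 without the 2 farthest), Map1a by 0.76 (0.76; 0.74) and Map1b by 0.64 (0.63; 0.58). Uchl1 (-0.72, -0.70; -0.71) and Gap43 (-0.61, -0.64; -0.64) ran against it. These 5 had adjusted permutation p = 0.00014 for r over 110 relations.

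Ina (3.24 kb), Nefm (5.78 kb) and Mapt (6.38 kb) correlated with the length tendency by r = -0.54, -0.51 and -0.43 (rho = -0.54, -0.51 and -0.45; adjusted p = 0.00014, 0.00077 and 0.0049). The exon lengths of Nefm and Mapt exceed those of 77.7% and 82.1% of genes. Exon length joins all annotated exons of a gene, so an expressed mRNA can be shorter. Without the 2 farthest libraries the correlations of Ina, Nefm and Mapt were -0.55, -0.54 and -0.47. Nefh passed as well (r = -0.39, rho = -0.38, adjusted p = 0.013 for r; -0.45 without the 2 farthest). Nefl did not (-0.29, adjusted p = 0.083). The part of length in the sets was not tested. The sum of astrocyte markers gave r = 0.66 for Map2 and -0.61 for Uchl1 (rho = 0.63 and -0.60; adjusted p = 0.00014; 0.55 and -0.60 without the 2 farthest). For Map1a it gave 0.48 (adjusted p = 0.0029; 0.29), and for Map1b 0.31, which did not pass (0.057). Hippocampal markers passed for r with Map1a (0.35, 0.029), Map1b (0.43, 0.0052) and Map2 (0.37, 0.018). Thalamic markers did with Map1b (0.33, 0.035) and Map2 (0.37, 0.018), and against Uchl1 (-0.43, 0.0052) and Gap43 (-0.51, 0.00037). The sum of 20 markers of large projection and fast-spiking neurons moved with Nefh (r = 0.48, rho = 0.45, adjusted p = 0.001 for r; 0.54 without the 2 farthest), Map1a (0.46, 0.37, 0.0029; 0.34), Map1b (0.39, 0.43, 0.013; 0.37) and Nefl (0.33, 0.25, 0.039; 0.34), and against Gap43 (-0.46, -0.44, 0.0029; -0.44). Nefm (r = 0.24, adjusted p = 0.16) and Ina (0.27, 0.11) did not pass, nor did the rho of Nefl (adjusted p = 0.14). Nefl also moved with the sums of pan-neuronal markers (r = 0.40, adjusted p = 0.01) and cortical layer markers (0.42, 0.0065). Mapt moved against the cortical layer sum for r (-0.46, adjusted p = 0.0029; -0.35 without the 2 farthest) but not for rho (-0.27, 0.12). Without the 6 libraries that stood apart its r was -0.24. Ina moved against that sum (r = -0.37, 0.018) and Map2 with it (0.41, 0.0082), neither past the test for rho (0.26 and 0.054). By sex, r was -0.63 in females and 0.15 in males for Mapt, -0.63 and 0.45 for Ina, and 0.52 and -0.10 for Map2.

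**Figure D5:**
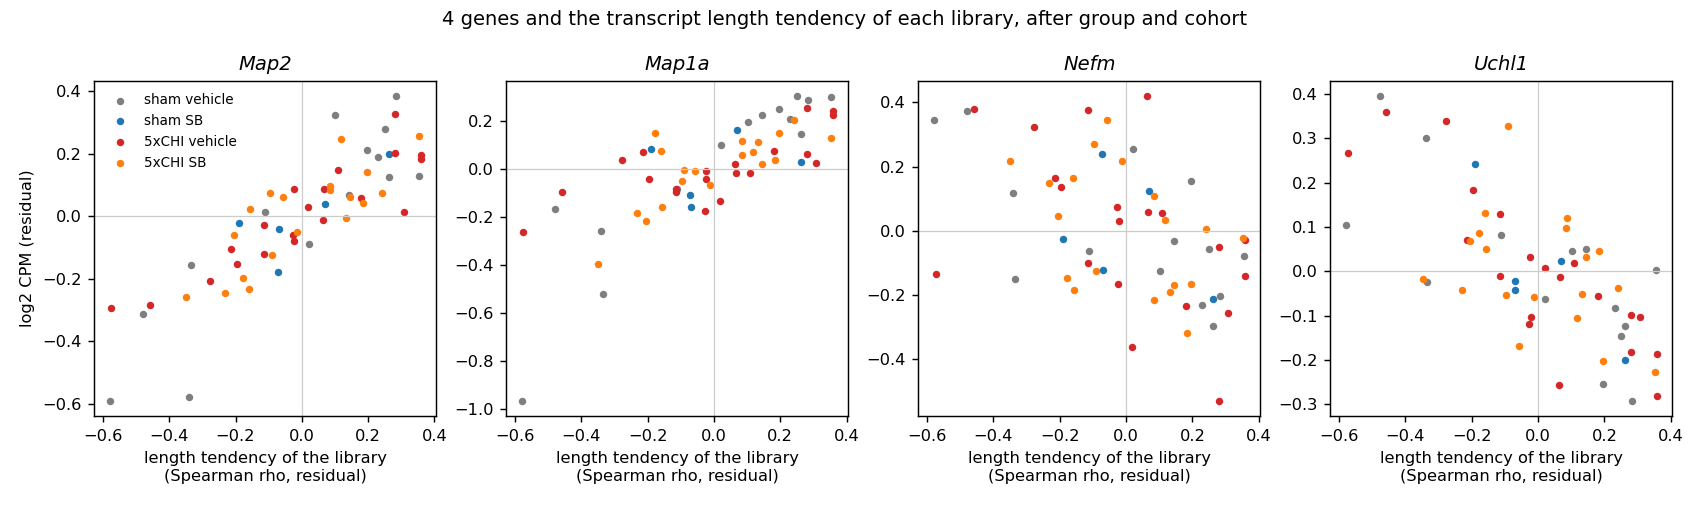
Residual log2 CPM of Map2, Map1a, Nefm and Uchl1 (vertical) against the residual length tendency of each library (horizontal, Spearman rho of gene deviation with exon length), 58 points coloured by group. Map2 rises with it (r = 0.86), and Nefm (-0.51) and Uchl1 (-0.72) fall.

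The genes whose pattern was most like each member differed by set, over the same 58 libraries and as a description. For Map2 they were Dlg2 (r = 0.96), a synaptic scaffold, the adhesion molecule Nrcam (0.94) and the microtubule-binding Apc (0.94). Map1a was most like Arhgap35 (0.94), and Map1b like Ank3 (0.77), the ankyrin of the axon initial segment. Uchl1 was most like the glycolytic enzymes Aldoa (0.92) and Eno1 (0.91) and the tubulin Tubb5 (0.90), and Gap43 like Ldha (0.74). Nefh was most like Cplx1 (0.72), Vamp1 (0.70) and Chgb (0.70), of which Cplx1 and Vamp1 are on the list of projection and fast-spiking neuron markers. Ina was most like Chgb (0.76), Nefm like Habp4 (0.72), Nefl like Pitpna (0.71) and Mapt like Auh (0.73).

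Other genes of the same systems were read from fixed lists, and none had an adjusted p under 0.05 in any of the 4 comparisons read (edgeR). For injury in vehicle mice, 1.75% of all genes had an unadjusted p under 0.05. Counts at that p were 0 of 13 genes on the tubulin list, 0 of 42 other microtubule-associated and stathmin genes, 0 of 21 spectrin, ankyrin and calpain genes, 0 of 34 tau kinases and phosphatases, 0 of 18 genes of programmed axon degeneration and 0 of 21 ubiquitin enzymes. Growth-associated genes had 2 of 27, both lower: Bdnf, a neurotrophin (-0.2 ± 0.086, p = 0.0222), and Nrn1 (-0.12 ± 0.058, p = 0.0442). Gfap, the intermediate filament of astrocytes and itself a blood marker of brain injury, was at 0.22 ± 0.097 (p = 0.0302, adjusted p = 1) and was the 1 of 7 other intermediate filament genes below that p. Of 25 other proteins measured in body fluids after brain injury, Gfap and Nptx2 (-0.19 ± 0.079, p = 0.0197) were.

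For SB in injured mice, 5032 of all 9636 genes were above zero and 7.06% had an unadjusted p under 0.05. Above zero were 17 of 21 spectrin, ankyrin and calpain genes and 26 of 34 tau kinases and phosphatases (medians 0.058 and 0.028). At that p were 0 and 1 of them, respectively. That 1 was the tau kinase Ttbk1 (0.13 ± 0.061, edgeR p = 0.0383, adjusted p = 0.689). Of the 13 genes on the tubulin list 1 was higher at that p, Tubgcp2 (0.13 ± 0.038, p = 0.00132), which belongs to the gamma-tubulin complex and is not itself a tubulin. Lower at that p were 2 tubulins, Tubb4a (-0.1 ± 0.046, p = 0.0313) and Tuba1a (-0.093 ± 0.043, p = 0.0371). Of 42 microtubule-associated and stathmin genes 2 were higher and 3 lower at that p, among them Stmn1, which sequesters tubulin (-0.14 ± 0.045, p = 0.00354, adjusted p = 0.655). Of 21 ubiquitin enzymes 1 was higher and 2 were lower at that p, including Uchl3, the relative of Uchl1 (-0.14 ± 0.051, p = 0.00981). The counts at that p were 0 of 27 for growth-associated, 0 of 18 for axon degeneration and 0 of 7 for other intermediate filament genes, and 1 of 25 for other fluid markers, the myelin gene Mbp.

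In sham mice given SB, 4541 of all 9636 genes were above zero and 7.02% had an unadjusted p under 0.05. Of 21 spectrin, ankyrin and calpain genes 18 were above zero (median 0.069), 4 of them at that p. Sptan1 (0.23 ± 0.083, edgeR p = 0.00741) and Add2 (0.23 ± 0.088, p = 0.0107) came first. Growth-associated genes had 16 of 27 above zero (median 0.083) and 4 at that p, led by the semaphorin receptor subunit Plxna4 (0.23 ± 0.081, p = 0.00536). Of 42 microtubule-associated and stathmin genes 3 were higher at that p, with Clasp1 first (0.22 ± 0.079, p = 0.00626), and 1 was lower, Stmn4 (-0.17 ± 0.064, p = 0.0122). Adjusted p was 0.677 for all 5 named genes. At that p, axon degeneration genes had 1 higher and 1 lower of 18, tau kinases and phosphatases 1 of 34 and ubiquitin enzymes 1 of 21 higher, and the tubulin list, other intermediate filament genes and other fluid markers 0 of 13, 0 of 7 and 0 of 25. Beside them, 19 of 19 oligodendrocyte and myelin markers were below zero (median -0.14), 0 at an unadjusted p under 0.05. The median exon length was 5.70 kb for the spectrin, ankyrin and calpain list and 6.22 kb for the growth-associated list, and the part of length in these values was not tested.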

How the data were processed

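Polyadenylated RNA of 58 cortices was sequenced from directional NEBNext libraries, per the labels' protocols. Raw read counts for each gene were deposited. The submitters' processing notes name STAR, featureCounts, DESeq2 and the build GRCm39/mm39; the strand setting, the annotation and all versions were not given in the sources used here, so overlapping genes could share counts. The smallest count is 101 and the smallest mean 270.1, so genes of low count were left out before deposit by a rule not given in the sources used here.

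Counts were tested with edgeR 4.0.16 in R 4.3.3 (TMM, robust quasi-likelihood, 8 groups plus cohort within sex, 14 coefficients, 44 residual degrees of freedom), two-sided, with Benjamini-Hochberg adjustment at 0.05 over 9636 genes. The script was tested on simulated data. Totals of 28316280 to 49158277 counts cover listed genes only; the spread between libraries (biological coefficient of variation 0.123) outweighs counting error. Log2 CPM used a prior count of 2, and levels are TMM-scaled CPM. Exon lengths are unions of GENCODE M21 basic exons, found for 9549 genes (99.1%), and serve only as lengths. Library pairs within groups all differed by far more than sampling noise (chi-square per degree of freedom of 9.83 or more).

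The 10 genes and 20 lists were chosen with earlier results of these data known. The 10 genes are all described; of each list, up to 2 genes of smallest p per direction could be named, and 3 most alike genes per member. Alternatives were RLE size factors, a mean CPM of at least 20, a replicate block, no cohort term, a transcript length offset, DESeq2 1.42.0, each library left out in turn and, added after seeing the data, leaving out the 6 libraries beyond 3 scaled median absolute deviations on any of the first 4 principal components.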

Additional observations from a re-analysis of the deposited data

Results flagged for a closer look

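Within groups of 4 to 10 libraries, 40 gene and group combinations were examined for a library far from the others, and 3 were found; chance gives about 1 in 20. Nefh in male 5xCHI vehicle replicate 7 was at 197 CPM, with the nearest of the other 7 at 146. Female sham vehicle replicate 1 accounted for the other two, with Mapt at 1002 CPM (nearest 841) and Ina at 400 CPM (nearest 323). The same library had the highest Nefh (242 CPM) and the lowest Map2 (757 CPM) of all 58, the highest summed myelin markers (23746 CPM) and the lowest summed cortical layer markers (1744 CPM, against 2142 in the next). The part of these markers in its Mapt and Ina levels was not tested.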

How the results depend on the processing

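A total of 67 fold changes of the 10 genes was recomputed, and none had an adjusted p under 0.05 in any setting, as in the reported fit. RLE size factors, the filter at a mean CPM of 20 and DESeq2 kept 67 of 67 directions. Estimates near zero turned sign elsewhere. Without a cohort term, injury in males became -0.0036 for Map1b and -0.027 for Nefh. The replicate block gave, for injury, 0.026 (Gap43) and 0.012 (Map1b) in both sexes, -0.023 (Map1a) and -0.0004 (Map2) in females and -0.029 (Nefh) in males. The transcript length offset gave, for SB, -0.043 (Map1b), -0.0024 (Nefm) and 0.022 (Uchl1) in both sexes, -0.058 (Map1b) and 0.024 (Uchl1) in females and -0.028 (Map1b) and -0.011 (Map2) in males, and for injury -0.1 (Map1b) in males and 0.033 (Gap43) in both sexes. Without the 6 libraries that stood apart, injury gave 0.053 (Gap43), 0.01 (Ina), -0.033 (Map1a), -0.046 (Map2), 0.0028 (Mapt) and 0.029 (Uchl1) in both sexes, 0.032 (Ina), -0.15 (Map1a), -0.14 (Map2) and 0.018 (Mapt) in females and 0.041 (Nefl) and 0.072 (Nefm) in males. The causes were not tested.

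With single libraries left out, 22 of 67 fold changes turned sign at least once. For injury in both sexes the ranges were -0.03 to 0.034 (Gap43), -0.01 to 0.11 (Map1a), -0.04 to 0.0065 (Map1b) and -0.025 to 0.012 (Mapt). In females they were -0.068 to 0.0078 (Ina), -0.089 to 0.042 (Map1a), -0.071 to 0.071 (Map2) and -0.023 to 0.023 (Mapt). In males they were -0.023 to 0.21 (Map1a), -0.04 to 0.052 (Map1b), -0.038 to 0.035 (Mapt), -0.055 to 0.068 (Nefh), -0.06 to 0.036 (Nefl) and -0.13 to 0.068 (Nefm). For SB the ranges were -0.018 to 0.056 (Nefm) in both sexes, -0.0061 to 0.04 (Nefl) and -0.086 to 0.0097 (Nefm) in females, and -0.026 to 0.03 (Map1b), -0.018 to 0.049 (Map2), -0.085 to 0.022 (Nefh), -0.014 to 0.053 (Nefl) and -0.047 to 0.047 (Uchl1) in males.

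The cohort counts depended more on the setting. Genes called for cohort in females fell from 4816 to 2602 with the replicate block. In males 369 became 613 with DESeq2, 90 with the block, 1543 without the 6 libraries and 28 to 769 with single libraries left out. The members called in males were 1 as reported, 0 with the block, 2 without the 6 libraries and 0 to 1 with single libraries left out. Replicate numbers do not pair samples here: same-numbered libraries correlated from -0.58 to 0.57 in females (10 of 38 pairs over 0.1) and from -0.50 to 0.52 in males (9 of 24), so the block has no basis in the design. Among the cohort calls, Nefm in females was lost with the filter (adjusted p = 0.0551), the block (0.0895), the length offset (0.0969) and without the 6 libraries (0.107). Ina in females was gained with the filter (0.0334) and DESeq2 (0.04), Mapt in females (0.147) and Map1a in males (0.133) were lost with the block, and Map1b in males was gained without the 6 libraries (0.0311).

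The table lists only genes of high count, so the spread between libraries and not depth limits these estimates: the 95% intervals for injury reach from -0.076 to 0.048 for Mapt and from -0.31 to 0.028 for Nefm.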

Other observations

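The cell type lists give the setting in which the 10 genes were read, and no listed gene had an adjusted p under 0.05 by edgeR. For injury in vehicle mice, 4764 of 9636 genes were above zero and 1.75% had an unadjusted p under 0.05. Above zero were 18 of 19 oligodendrocyte and myelin markers (median log2 difference 0.072) and 11 of 13 microglia markers (0.059), with 0 of each at that p. Pan-neuronal markers were split, with 7 above and 11 below zero (median -0.021), as were the projection and fast-spiking neuron markers, with 10 and 10 (0.001). For SB in injured mice, 5032 of 9636 genes were above zero and 7.06% had an unadjusted p under 0.05. Above zero were 12 of 12 vessel markers (median 0.083) and 6 of 6 striatal markers (0.26), with 1 each at that p: Vwf (0.25 ± 0.11, p = 0.0307) and Ppp1r1b (0.31 ± 0.15, p = 0.0428). The striatal sum ran from 342 to 993 CPM (median 387) in female and from 345 to 1665 CPM (median 418) in male injured SB libraries. In injured vehicle libraries it was 314 to 778 CPM (median 393) in females and 332 to 729 CPM (median 351) in males. Pan-neuronal markers were again split, with 7 above and 11 below zero (median -0.013).

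In injured SB mice against sham vehicle mice, the parvalbumin gene Pvalb, a marker of fast-spiking interneurons, was at -0.24 ± 0.09 (edgeR p = 0.00961, adjusted p = 0.351), beside Nefh at -0.17 ± 0.08 and Ina at -0.12 ± 0.048 in the same comparison. The list of 20 projection and fast-spiking neuron markers as a whole had 12 above and 8 below zero (median 0.023). The other gene of that list below an unadjusted p of 0.05 was Kcnc1, a potassium channel of the same cells, at 0.12 ± 0.05 (p = 0.0205). The 2 genes thus pointed in opposite directions.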
